A study of Homo sapiens with 16 samples.

Results

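The interferon-stimulated genes are a set of 47 human genes whose transcripts are raised when a cell detects virus-like nucleic acid or an interferon. They were taken as a fixed list of symbols, matched to the rows of the deposited table, and 44 of the 47 were found among its 11282 genes. DHX58, USP18 and IRF9 were not analysed here. All 44 passed the filter on low values, which 10826 genes passed in all. The values come from HCC70, an established human line of basal-like, triple-negative breast cancer, grown in multiwell plates and infected with short hairpin RNA (shRNA) constructs. The series asks which regulators shape cell heterogeneity and division mode in basal-like cancer. Of the 16 libraries, 2 each carried constructs named for KLF5, RBPJ, NFIB and FOXA1, which all encode transcription factors, with a different hairpin in each library. Another 6 carried hairpins named for RFP, LacZ or luciferase, genes that human cells lack, with 2 libraries each of shRFP, shLACZ and shLUC, and these are called the hairpin controls. The remaining 2 were labelled plko, the name of a vector backbone. All 16 libraries thus came from infected cells of a single line, and no library of uninfected cells is described here. The labels do not say whether libraries came from separate cultures, so the p-values measure only the spread between these libraries. Within a target that spread includes the difference between its hairpins. Between libraries of the same control construct it may be technical.

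Cells sense foreign RNA with RIG-I, encoded by RIGI, and MDA5, encoded by IFIH1, and sense cytosolic DNA through cGAS and STING. These sensors induce interferons, which act through receptors and JAK kinases on a complex that holds STAT2 and IRF9. That complex binds a promoter element called the interferon-stimulated response element (ISRE), and a further element of such promoters is the gamma-activated site (GAS). The induced genes block viral entry (IFITM proteins), hold virions at the cell surface (BST2), degrade RNA (OAS enzymes with RNase L), stop translation of foreign RNA (IFIT proteins, EIF2AK2) or attach the ubiquitin-like protein ISG15. Tumour lines can hold a part of this program without added interferon.

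The promoters of the genes that the results turn on are shown because they carry the element that many members of the set share. RefSeq windows on GRCh38.p14, from 250 bases before the transcript start to 50 after, were found for 37 of the 44 genes. Both strands were searched for the ISRE core, which is GAAA, any 2 bases and GAAA again (TTTC in both places on the other strand), and overlapping matches were allowed. A match was present for 26 of the 37 genes (70.3%), against 4.38% of 27305 genes with a window. The palindrome TTCNNNGAA, a GAS core, was present for 11 of the 37 (29.7%), against 9.38% of all genes, and it can overlap an ISRE match. A match describes the letters only. Where a gene had several windows, the window with the most ISRE matches is printed, and capitals mark those matches. The first 6 genes below reached their highest value in NFIB 2 or KLF5 1.
IFI6, chr1:27672143-27672442, minus strand: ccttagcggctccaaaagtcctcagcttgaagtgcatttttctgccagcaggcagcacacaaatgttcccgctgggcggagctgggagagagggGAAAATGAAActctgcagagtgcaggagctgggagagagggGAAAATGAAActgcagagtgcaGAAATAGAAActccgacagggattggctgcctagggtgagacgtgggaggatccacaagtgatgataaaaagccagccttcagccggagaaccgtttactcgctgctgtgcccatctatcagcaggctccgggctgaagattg
IFIT1, chr10:89392373-89392672, plus strand: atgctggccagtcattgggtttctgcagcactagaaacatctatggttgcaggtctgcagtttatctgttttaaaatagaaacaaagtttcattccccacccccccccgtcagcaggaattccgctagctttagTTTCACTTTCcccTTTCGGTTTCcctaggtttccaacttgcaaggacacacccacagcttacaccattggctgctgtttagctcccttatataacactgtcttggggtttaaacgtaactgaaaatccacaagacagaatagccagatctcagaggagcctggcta
IFIT3, chr10:89327747-89328046, plus strand: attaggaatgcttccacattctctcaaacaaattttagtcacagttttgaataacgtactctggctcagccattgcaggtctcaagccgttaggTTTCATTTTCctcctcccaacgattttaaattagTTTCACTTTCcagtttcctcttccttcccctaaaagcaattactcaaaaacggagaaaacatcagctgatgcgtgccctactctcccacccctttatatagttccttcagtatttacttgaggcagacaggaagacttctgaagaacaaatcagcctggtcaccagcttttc
IFI44L, chr1:78620198-78620497, plus strand: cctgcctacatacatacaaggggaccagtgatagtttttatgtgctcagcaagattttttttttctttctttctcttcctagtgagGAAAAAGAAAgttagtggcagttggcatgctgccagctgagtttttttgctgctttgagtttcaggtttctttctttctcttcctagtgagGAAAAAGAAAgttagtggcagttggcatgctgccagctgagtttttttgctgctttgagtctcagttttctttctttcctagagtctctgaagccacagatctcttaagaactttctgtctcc
ISG15, chr1:1013247-1013546, plus strand: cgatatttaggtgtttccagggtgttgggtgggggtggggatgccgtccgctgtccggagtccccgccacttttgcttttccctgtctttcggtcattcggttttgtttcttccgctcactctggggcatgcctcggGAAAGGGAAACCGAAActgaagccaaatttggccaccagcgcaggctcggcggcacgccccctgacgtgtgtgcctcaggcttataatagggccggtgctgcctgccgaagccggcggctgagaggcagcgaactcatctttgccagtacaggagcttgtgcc
MX1, chr21:41420308-41420607, plus strand: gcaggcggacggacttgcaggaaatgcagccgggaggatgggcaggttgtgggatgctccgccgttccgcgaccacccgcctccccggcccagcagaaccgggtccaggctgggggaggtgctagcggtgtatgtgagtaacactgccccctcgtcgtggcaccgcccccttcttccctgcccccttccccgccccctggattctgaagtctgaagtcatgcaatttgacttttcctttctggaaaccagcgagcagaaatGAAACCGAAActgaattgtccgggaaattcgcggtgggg
IFITM1, BST2 and SAMD9 are printed because they were the genes of the set that fell most clearly with the KLF5 hairpins, and each also holds at least 1 match.
IFITM1, chr11:313790-314089, plus strand: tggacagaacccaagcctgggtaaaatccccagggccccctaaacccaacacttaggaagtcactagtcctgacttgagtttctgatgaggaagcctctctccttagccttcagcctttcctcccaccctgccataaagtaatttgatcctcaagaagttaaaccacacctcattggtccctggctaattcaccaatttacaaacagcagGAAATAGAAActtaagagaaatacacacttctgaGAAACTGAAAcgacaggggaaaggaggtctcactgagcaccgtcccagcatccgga
BST2, chr19:17405581-17405880, minus strand: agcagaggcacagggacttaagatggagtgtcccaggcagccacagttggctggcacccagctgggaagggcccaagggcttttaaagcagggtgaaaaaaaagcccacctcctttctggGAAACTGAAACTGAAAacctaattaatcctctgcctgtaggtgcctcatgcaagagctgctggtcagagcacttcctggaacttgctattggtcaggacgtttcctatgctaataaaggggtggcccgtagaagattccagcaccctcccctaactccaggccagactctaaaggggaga
SAMD9, chr7:93117930-93118229, minus strand: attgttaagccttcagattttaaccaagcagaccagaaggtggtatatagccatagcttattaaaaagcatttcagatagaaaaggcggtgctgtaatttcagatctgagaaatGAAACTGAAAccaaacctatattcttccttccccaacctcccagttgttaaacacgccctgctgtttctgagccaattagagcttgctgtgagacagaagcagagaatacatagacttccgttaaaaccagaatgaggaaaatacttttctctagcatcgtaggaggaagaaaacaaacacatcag
No ISRE match was found in the windows of RIGI, OAS1, SAMD9L, CMPK2, SP110, XAF1, UBE2L6, HERC6, STAT2, IRF1 and IFI35.

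The unit is a normalized value, the read count of a gene divided by a scaling factor of the library, and values are compared between libraries and not between genes. Recovered totals ran from 375713 reads (plko 1) to 3090666 (the library labelled RBPJ 1), and the median of the 44 genes had 17 to 178.5 reads per library. The labels of the targets were checked first. KLF5 was at 63.4% and 37.8% of the mean of the hairpin controls with its hairpins 1 and 2, RBPJ at 89.5% and 17.7%, NFIB at 71.1% and 12.6%, and FOXA1 at 24.4% and 58.6%. NFIB was also low in RBPJ 2, at 201.04 against 308.54 to 366.23 in the hairpin controls and 237.81 in NFIB 1. The part of NFIB in the values of RBPJ 2 below was not tested. The library labelled RBPJ 1 was at 43.26 for RBPJ, within the hairpin controls (43.12 to 54.91), so the transcript goes against its label, and directions drawn from it below are those of the library labelled RBPJ 1. Both plko and both KLF5 libraries differed broadly from the others: with limma at an adjusted p under 0.05, 203 of 10826 genes were higher and 609 lower in plko than in the hairpin controls. KRT8, a keratin of simple epithelium, was at 12.83 to 22.06 in these 4 libraries and at 177 to 256 in the hairpin controls. The plko libraries were therefore kept apart from the hairpin controls, and KLF5 was compared with both. The epithelial keratin KRT5 was at 2085 or more in every library.

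Most of the 44 genes were high in NFIB 2 and low in RBPJ 2, and hairpins of the same target differed. They took 1.13% of all reads in NFIB 2 (95% exact binomial interval 1.12% to 1.15%) and 0.287% in RBPJ 2 (0.279% to 0.295%). In the hairpin controls this share ran from 0.38% (shLUC 2) to 0.758% (shLACZ 1). It was 0.982% in KLF5 1 (0.964% to 1%), above all of them, 0.713% in FOXA1 2 (0.691% to 0.736%), within them, and 0.375% in NFIB 1 (0.364% to 0.386%), at their lower edge. The intervals cover counting error only. NFIB 2 held the highest value of all 16 libraries for 21 of the 44 genes, and RBPJ 2 the lowest for 23. On the log2(value + 1) scale, the median difference of the 44 genes from the mean of the hairpin controls was 0.89 in NFIB 2, 0.43 in FOXA1 2, 0.35 in KLF5 1, 0.34 in the library labelled RBPJ 1 and 0.12 in FOXA1 1. It was -0.75 in RBPJ 2, -0.40 in NFIB 1 and -0.32 in KLF5 2, and it was 0.29 and 0.21 in plko 1 and plko 2. The same median over all tested genes stayed between 0.00 and 0.06 in every library. The hairpin controls themselves ran from -0.32 (shLUC 2) to 0.41 (shLACZ 1). By this median RBPJ 2, NFIB 1, NFIB 2 and, by a small margin, FOXA1 2 lay outside the range of the hairpin controls, and the other targeted libraries lay within it or at its edge. For KLF5 1 and FOXA1 2 the share of reads, which the most abundant genes set, gave the opposite placing.

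**Figure D1:**
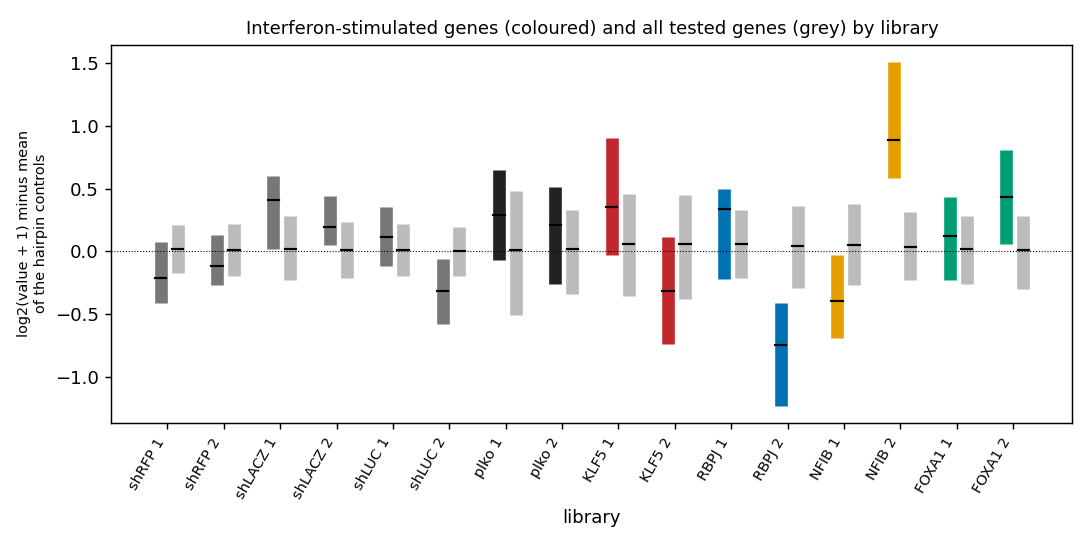
Difference in log2(value + 1) from the mean of the 6 hairpin controls for each library, with the 44 interferon-stimulated genes in colour and the 10826 tested genes in grey. Bars span the middle 50% of genes and black lines mark medians, which are 0.89 for the set in NFIB 2 and -0.75 in RBPJ 2, while the medians of all genes stay between 0.00 and 0.06.

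**Figure D2:**
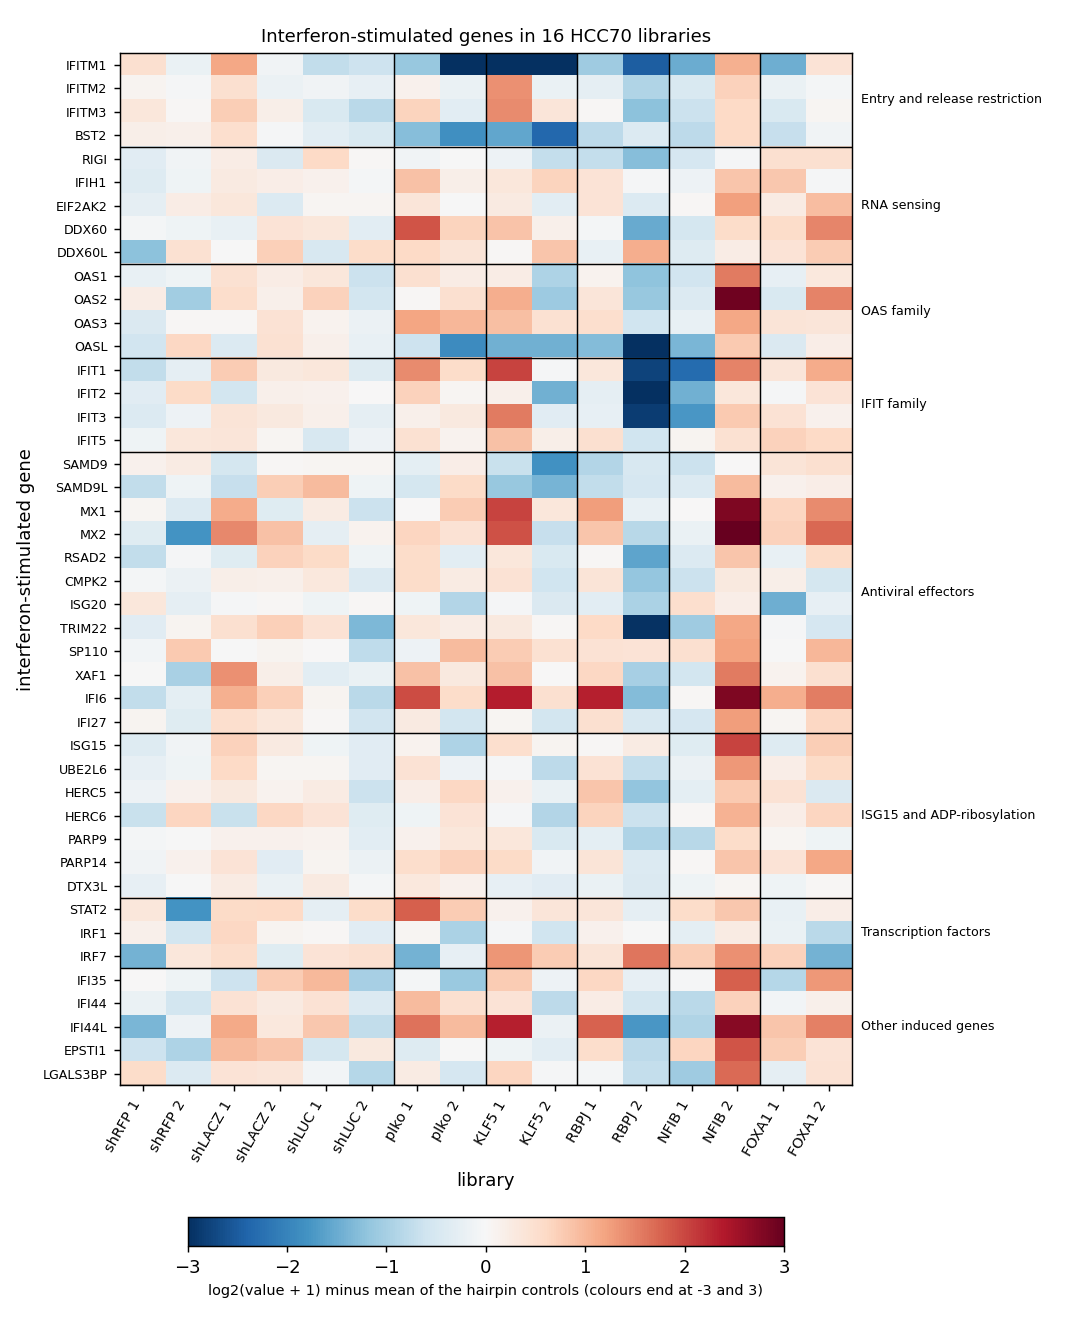
Each row is an interferon-stimulated gene, grouped by role, and each column a library, with colour for the difference in log2(value + 1) from the mean of the hairpin controls. The NFIB 2 column is red for most genes, and the RBPJ 2 column is blue across the OAS and IFIT families. IFITM1 and BST2 are blue in the plko and KLF5 columns, and also in both RBPJ columns, NFIB 1 and FOXA1 1.

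The NFIB comparison asked what follows from lowering a nuclear factor I protein, and its hairpins had opposite values for this set. In NFIB 2, 33 of the 44 genes lay above all 6 hairpin controls, against 16.3% of all tested genes, and 0 lay below, against 14.1%. In NFIB 1, 2 lay above (21.2% of all genes) and 14 below (17.7%). Single hairpin controls, each set against the other 5, also moved. In shLACZ 1, 23 of the 44 lay above (22% of all genes) and 3 below (19.7%). In shLUC 2, 0 lay above (14.1%) and 16 below (15.8%). The count in NFIB 1 was thus within what a hairpin control reached, and that in NFIB 2 was beyond it. NFIB 2 had the higher value for 43 of the 44 genes, where 47.9% of all genes were higher in it, and ISG20 was the exception. NFIB 2 was the more depleted of NFIB transcript, at 42.19 against 237.81 in NFIB 1. In the tests of single hairpins the spread came from the control libraries, and a hairpin has only its own library, whose spread is taken to equal theirs.

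MX1 encodes a dynamin-like GTPase that traps viral nucleocapsids. Its value was 371 in NFIB 2, 53.3 in NFIB 1 and 33.3 to 115 (median 48.0) in the hairpin controls. NFIB 2 was thus above every control and NFIB 1 among them. IFI6, a mitochondrial and endoplasmic reticulum protein that limits apoptosis and viral replication, was at 1747 in NFIB 2, 259 in NFIB 1 and 142 to 524 (median 235) in the hairpin controls. ISG15, the ubiquitin-like modifier itself, was at 204 in NFIB 2, 38.3 in NFIB 1 and 37.4 to 80.3 (median 45.1) in the hairpin controls. These 3 genes passed as higher in NFIB 2, where 0.0277% of all tested genes did. The log2 differences were 2.79 ± 0.43 (SE) for MX1, 2.79 ± 0.50 for IFI6 and 2.03 ± 0.38 for ISG15, with limma adjusted p of 0.00556, 0.0372 and 0.0454. At an unadjusted p under 0.05, 22 of the 44 were higher and 0 lower, against 2.47% and 2.75% of all genes. The count of 3 became 7 without shLACZ 1, 1 without shLUC 1, shRFP 1 or shRFP 2, and 0 with plko among the controls. The MX1 call held in each refit without 1 hairpin control. That of IFI6 was lost without shLUC 1, shRFP 1 or shRFP 2. That of ISG15 was lost in those refits and also without shLACZ 2 or shLUC 2. On recovered reads edgeR called 13.

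The 2 OAS genes with the largest differences in NFIB 2 did not pass. OAS2, which makes the activator of RNase L, was at 70.5 in NFIB 2, 6.15 in NFIB 1 and 3.59 to 14.5 in the hairpin controls (log2 2.91 for NFIB 2, adjusted p 0.0842). OAS1, of the same family, was at 193 in NFIB 2, 43.1 in NFIB 1 and 40.8 to 88.7 in the hairpin controls (1.56, adjusted p 0.0961). Both lay above all controls in NFIB 2 without passing. IFI44L, an induced gene that feeds back on interferon signalling, was at 147 in NFIB 2, 10.9 in NFIB 1 and 7.65 to 47.9 in the hairpin controls (2.73, adjusted p 0.103). EIF2AK2, the kinase PKR that halts translation on double-stranded RNA, was at 221 in NFIB 2 and 70.7 to 118 in the hairpin controls (1.23, adjusted p 0.108). MX2, at 35.4 against 0.00 to 8.45, and EPSTI1, at 14.3 against 1.2 to 7.04, rest on few control reads.

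NFIB 1 lay below the hairpin controls for 3 of the 4 genes of the IFIT family, cytosolic proteins that bind RNA lacking a self cap. IFIT1 was at 6.15 in NFIB 1, 99.6 in NFIB 2 and 20.4 to 59.1 (median 35.8) in the hairpin controls. IFIT3 was at 16.4 in NFIB 1, 99.98 in NFIB 2 and 43.4 to 76.0 (median 57.9) in the hairpin controls. For both genes NFIB 1 lay below and NFIB 2 above every hairpin control. In NFIB 1, IFIT1 fell by 2.32 on the log2 scale (SE 0.43) and IFIT3 by 1.75 (SE 0.31), with limma adjusted p of 0.0238 and 0.0219, and 0.296% of all genes were called lower and 0.0831% higher. The IFIT1 call was lost without shLACZ 2 or shRFP 2, which left a count of 1, and both calls were lost with plko among the controls. IFIT2, which binds such RNA with IFIT1 and IFIT3, was at 11.6 in NFIB 1 and 43.0 in NFIB 2, against 22.5 to 50.3, without a call.

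The difference between the NFIB hairpins was itself tested, and 7 of the 44 genes passed, all lower in NFIB 1, against 0.176% of all genes lower and 0.0924% higher. They were IFIT1 (log2 -3.81, limma adjusted p 0.00603), IFIT3 (-2.54, 0.0074), OAS1 (-2.14, 0.0418), MX1 (-2.78, 0.0418), ISG15 (-2.39, 0.0473), IFI44L (-3.63, 0.0497) and LGALS3BP (-2.77, 0.0497). LGALS3BP, a secreted galectin-binding glycoprotein, was at 10.9 in NFIB 1, 80.2 in NFIB 2 and 12.9 to 35.7 in the hairpin controls. The count of 7 became 2 without shLACZ 2 or shRFP 2 and 3 without shRFP 1. The mean of both NFIB hairpins against the hairpin controls called 0 of the 44 by limma, by edgeR and by DESeq2. By adjusted p that comparison called 0.00924% of all genes, all of it lower. At an unadjusted p under 0.05, 4 of the 44 were higher and 0 lower, against 3.24% and 3.29% of all genes. Of the 44 genes, 9 had NFIB 1 and NFIB 2 on opposite sides of all hairpin controls, against 5.04% of all genes.

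**Figure D3:**
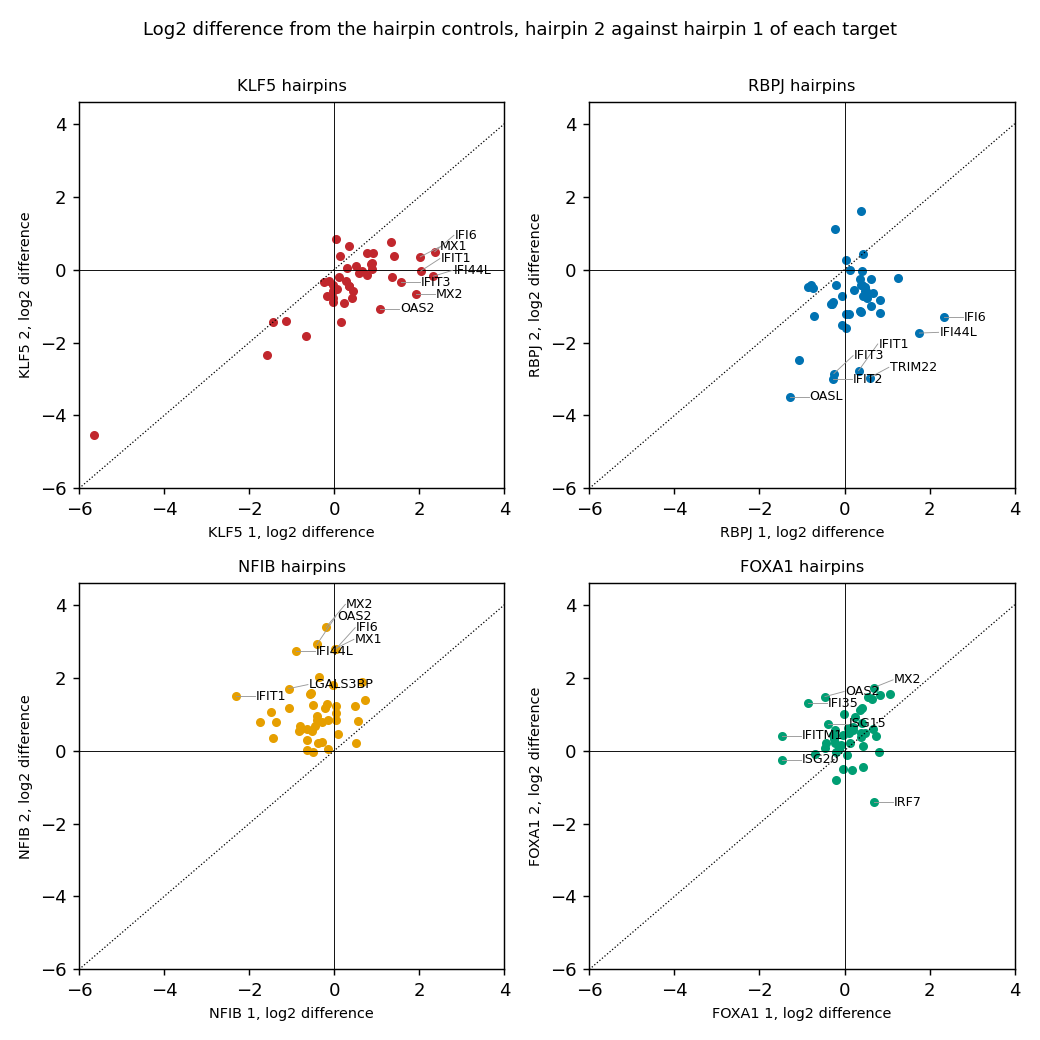
Difference in log2(value + 1) from the mean of the hairpin controls for the 44 genes, hairpin 2 (vertical) against hairpin 1 (horizontal) of each target, with a dotted line where both are equal. Points lie above the line for 43 genes with NFIB and below it for 38 with RBPJ and 40 with KLF5, and the lowest KLF5 point is IFITM1.

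RBPJ is the DNA-binding partner of Notch receptors, and its comparison asked what follows from lowering it. In RBPJ 2, the library with the lower RBPJ transcript, 27 of the 44 genes lay below all hairpin controls, against 17.9% of all genes, and 2 above, against 20.6%. In the library labelled RBPJ 1, 8 lay below (14.7% of all genes) and 10 above (16.6%). The library labelled RBPJ 1 had the higher value for 38 of the 44, against 50.9% of all genes. RBPJ 2 held 1762664 reads and NFIB 2 held 1958659, both more than any hairpin control (at most 1264671), and the part of depth in these values was not tested.

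All 4 members of the IFIT family lay below the hairpin controls in RBPJ 2. IFIT3 was at 7.11 in RBPJ 2, 48.5 in the library labelled RBPJ 1 and 43.4 to 76.0 in the hairpin controls. IFIT2 was at 3.32 in RBPJ 2, 27.6 in the library labelled RBPJ 1 and 22.5 to 50.3 in the hairpin controls. IFIT1 was at 4.27 in RBPJ 2, 44.0 in the library labelled RBPJ 1 and 20.4 to 59.1 in the hairpin controls. The library labelled RBPJ 1 was within the controls for all 3 of these genes. They fell in RBPJ 2 by 2.85 ± 0.31 (SE), 3.0 ± 0.39 and 2.77 ± 0.43 on the log2 scale, with limma adjusted p of 1.76e-05, 9.68e-05 and 0.000671. These calls held in each refit without 1 hairpin control and with plko among the controls. IFIT5, which prefers RNA with a triphosphate end, was at 13.3 in RBPJ 2 against 14.5 to 26.8, with no call.

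A further 5 genes passed as lower in RBPJ 2, which brings the count to 8 of 44, against 1.87% of all genes lower and 0.397% higher. OASL, an OAS relative that lacks the enzyme activity and strengthens RIG-I signalling, had 2 reads in RBPJ 2, a value of 4.33% of the mean of the hairpin controls (95% exact Poisson interval 0.525% to 15.6%), and was at 7.96 in the library labelled RBPJ 1 against 13.6 to 32.3. Its log2 difference in RBPJ 2 was -3.49. OASL was also below every hairpin control in plko 1 (13.2), plko 2 (4.96), KLF5 1 (7.11), KLF5 2 (7) and NFIB 1 (7.52). NFIB 2 (36.7) was above them, and FOXA1 1 (15.1) and FOXA1 2 (24.0) were within. TRIM22, a ubiquitin ligase of the antiviral tripartite motif family, had 0 reads in RBPJ 2, at least 5.32-fold lower than the mean of the hairpin controls at a floor of 3 reads in that library. It was at 10.7 in the library labelled RBPJ 1 and 2.04 to 11.8 in the hairpin controls. Both genes rest on few reads in RBPJ 2. IFITM1, the IFITM protein of the plasma membrane, was at 8.06 in RBPJ 2, 23.1 in the library labelled RBPJ 1 and 28.99 to 113 in the hairpin controls (log2 -2.47, adjusted p 0.0417). DDX60, a helicase tied to RNA sensing, was at 8.06 in RBPJ 2, 23.9 in the library labelled RBPJ 1 and 19.7 to 33.2 in the hairpin controls (-1.52, adjusted p 0.048). PARP9, an inactive ADP-ribosyltransferase that works with the ligase DTX3L, was at 88.7 in RBPJ 2, 139 in the library labelled RBPJ 1 and 135 to 187 in the hairpin controls (-0.93, adjusted p 0.0337). At a pseudocount of 5 the TRIM22 difference was -1.27 and its call was lost (adjusted p 0.132), as was that of DDX60 (0.0828), which was also lost with no filter (0.051). The last 3 calls were lost with plko among the controls and without shLACZ 2, shRFP 1 or shRFP 2, those of DDX60 and PARP9 also without shLUC 1, and that of IFITM1 also without shLACZ 1. The count of 8 was 5 without shLACZ 2 or shRFP 2 and 5 with plko among the controls.

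Between the RBPJ hairpins 6 of the 44 genes passed, all higher in the library labelled RBPJ 1, against 0.905% of all genes higher and 0.49% lower. They were IFIT3 (log2 2.61, limma adjusted p 0.00297), IFIT1 (3.10, 0.00658), IFI6 (3.65, 0.00658), IFIT2 (2.73, 0.00856), IFI44L (3.49, 0.0224) and HERC5 (2.02, 0.047). IFI6 stood on opposite sides of the hairpin controls, at 1277 in the library labelled RBPJ 1 and 101 in RBPJ 2 against 142 to 524. IFI44L did the same, at 74.3 and 5.69 against 7.65 to 47.9. HERC5, the main ligase for ISG15, was at 41.5 and 9.48 against 14.3 to 28.2. The HERC5 call was lost with no filter (adjusted p 0.0504) and without shLACZ 2, shLUC 1, shRFP 1 or shRFP 2. The library labelled RBPJ 1 called 0 of the 44 against the hairpin controls by limma, where 0% of all genes were called. By edgeR 1 was called as higher. At an unadjusted p under 0.05 limma had 4 higher and 3 lower, against 2.06% and 3.84% of all genes. At an unadjusted p under 0.05, the mean of both RBPJ hairpins had 0 of the 44 higher and 8 lower, against 2.1% and 3.92% of all genes. By adjusted p, 0.0277% of all genes were called lower by limma. The number of the 44 called was 0 by limma, edgeR and DESeq2. That count was 4, all lower, without the library labelled RBPJ 1, which left RBPJ 2 as a lone sample, and 1 without either NFIB library.

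KLF5 is a zinc-finger factor of epithelial cells. Against the hairpin controls 4 of the 44 passed with the mean of both hairpins, all lower, where 6.61% of all genes were lower and 4.42% higher. That is close to the background, so the count by itself sets the 44 genes apart from no others. IFITM1 had 0 reads in KLF5 1, at least 25.9-fold lower than the mean of the hairpin controls at a floor of 3 reads, and 1 read in KLF5 2, which is 2.11% of that mean (95% exact Poisson interval 0.0534% to 11.8%). It was at 22.1 in plko 1, 3.72 in plko 2 and 28.99 to 113 in the hairpin controls, so that all 4 KLF5 and plko libraries lay below every hairpin control. This was not particular to them. IFITM1 was also below every hairpin control in the library labelled RBPJ 1 (23.1), RBPJ 2 (8.06), NFIB 1 (17.1) and FOXA1 1 (17.1). NFIB 2 (105) and FOXA1 2 (66.1) were within the hairpin controls. BST2, the tether of budding virions, was at 122 in KLF5 1, 71.2 in KLF5 2, 150 and 102 in plko and 266 to 517 in the hairpin controls, again with these 4 libraries below all 6. BST2 was also below all 6 in the library labelled RBPJ 1 (211), NFIB 1 (212) and FOXA1 1 (226). RBPJ 2 (275) and FOXA1 2 (342) were within the hairpin controls, and NFIB 2 (553) was above them. SAMD9, a restriction factor of poxviruses, was at 105 and 46.7 with KLF5, 135 and 190 in plko and 115 to 196 in the hairpin controls. SAMD9 was also below every hairpin control in the library labelled RBPJ 1 (90.3) and in NFIB 1 (106), and within them in RBPJ 2 (119) and NFIB 2 (167). Its relative SAMD9L was at 18.5 and 15.2 with KLF5, 28.7 and 62.6 in plko and 24.6 to 81.3 in the hairpin controls. The log2 differences were -1.96 ± 0.29 (SE) for BST2, -1.24 ± 0.25 for SAMD9 and -1.27 ± 0.39 for SAMD9L, with limma adjusted p of 0.000108, 0.00234 and 0.0393, and the adjusted p was 1.39e-05 for IFITM1. With single hairpins BST2 and IFITM1 passed in both, SAMD9 in KLF5 2 and SAMD9L in neither. SAMD9 lost its call without KLF5 2 (log2 -0.66, adjusted p 0.223), and SAMD9L without either KLF5 library or without shLACZ 2, shLUC 1, shLUC 2 or shRFP 2.

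Set against plko, which also differed broadly from the hairpin controls, 2 of the 44 genes passed, both lower with KLF5, against 1.16% of all genes lower and 2.27% higher. They were SAMD9 (log2 -1.18, limma adjusted p 0.0381) and IFITM1 (adjusted p 0.0421). BST2 was not among them, and it passed as lower in plko against the hairpin controls (-1.56, adjusted p 0.00254). The count of 2 was 0 by edgeR and in the refits without KLF5 2, plko 1, shLUC 2 or shRFP 1. It was 1 by DESeq2 and without KLF5 1, plko 2, shLACZ 2 or shRFP 2. At an unadjusted p under 0.05 limma had 1 member higher and 5 lower, against 11.1% and 8.21% of all genes. In plko itself 4 of the 44 passed against the hairpin controls, where 5.63% of all genes were lower and 1.88% higher. BST2 and IFITM1 (log2 -2.27, adjusted p 0.0288) were lower. OAS3, the OAS enzyme of long chains, at 236 and 206 against 76.5 to 140, was higher by 1.08 (adjusted p 0.0261), and DDX60, at 94.9 and 40.3 against 19.7 to 33.2, by 1.28 (adjusted p 0.0421). The count of 4 was 2 without plko 1, plko 2 or shLACZ 1 and 1 without shRFP 1.

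In the direct test between KLF5 1 and KLF5 2, limma had 14 members higher and 0 lower in KLF5 1 at an unadjusted p under 0.05. The shares of all genes were 2.85% and 1.76%. By adjusted p limma called 0 of the 44 (smallest adjusted p 0.258) and 0% of all genes, and edgeR also called 0 of the 44. The values of each hairpin are therefore given beside the controls only. In KLF5 1, 18 of the 44 genes lay above all hairpin controls (24.8% of all genes) and 6 below (22%), and in KLF5 2, 4 lay above (25%) and 17 below (22.9%). Among the hairpin controls, each set against the other 5, shLACZ 1 had 23 above and shLUC 2 had 16 below. KLF5 1 had the higher value for 40 of the 44, against 50.5% of all genes. In KLF5 1, 8 members passed as higher, where 2.28% of all genes did, and 2 as lower, where 4.44% did. The higher genes were IFI6 (log2 2.36), IFI44L (2.33), IFIT1 (2.03), MX1 (2.02), IFIT3 (1.57), IFITM3 (1.41), IFITM2 (1.36) and OAS3 (0.91), with limma adjusted p of 0.00171 to 0.0423, and BST2 and IFITM1 were the lower pair. IFIT1 was at 146 in KLF5 1, 33.8 in KLF5 2, 94.9 and 51.4 in plko and 20.4 to 59.1 in the hairpin controls. MX1 was at 217 in KLF5 1, 67.7 in KLF5 2, 53.0 and 89.2 in plko and 33.3 to 115 in the hairpin controls. IFI6 was at 1295 in KLF5 1, 352 in KLF5 2, 973 and 367 in plko and 142 to 524 in the hairpin controls. KLF5 1 thus exceeded every hairpin control and both plko libraries for all 3 of these genes. With plko as the only control, an alternative chosen after seeing the data, 2 calls were left in KLF5 1, IFITM2 higher and IFITM1 lower. Under that control the differences were 1.11 for IFI6, 1.05 for IFIT1, 1.64 for MX1 and -0.17 for OAS3, none of which passed.

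IFITM2 and IFITM3 act in endosomes, while IFITM1 sits at the cell surface, and in KLF5 1 these neighbours moved apart. IFITM3 was at 3232 in KLF5 1, 1560 in KLF5 2, 1941 and 976 in plko and 694 to 2018 in the hairpin controls. IFITM2 was at 638 in KLF5 1, 217 in KLF5 2, 269 and 214 in plko and 210 to 345 in the hairpin controls. Both were highest in the library in which IFITM1 had 0 reads. IFITM2 and IFITM3 are near-identical and may share reads, so their separate values are uncertain. In KLF5 2, 4 members passed as lower (3.44% of all genes) and 0 as higher (1.24%): BST2 (log2 -2.35), SAMD9 (-1.81), IFITM1 and IFIT2 (-1.45, limma adjusted p 0.0359), the last at 11.7 against 22.5 to 50.3. The IFIT2 call was lost by edgeR (adjusted p 0.0583), with all 8 controls (0.12) and without shLACZ 2, shLUC 1, shLUC 2 or shRFP 2. The BST2 and IFITM1 calls in KLF5 2 were lost with all 8 controls (adjusted p 0.158 and 0.0894) and with plko as the only control (0.222 and 0.118).

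**Figure D4:**
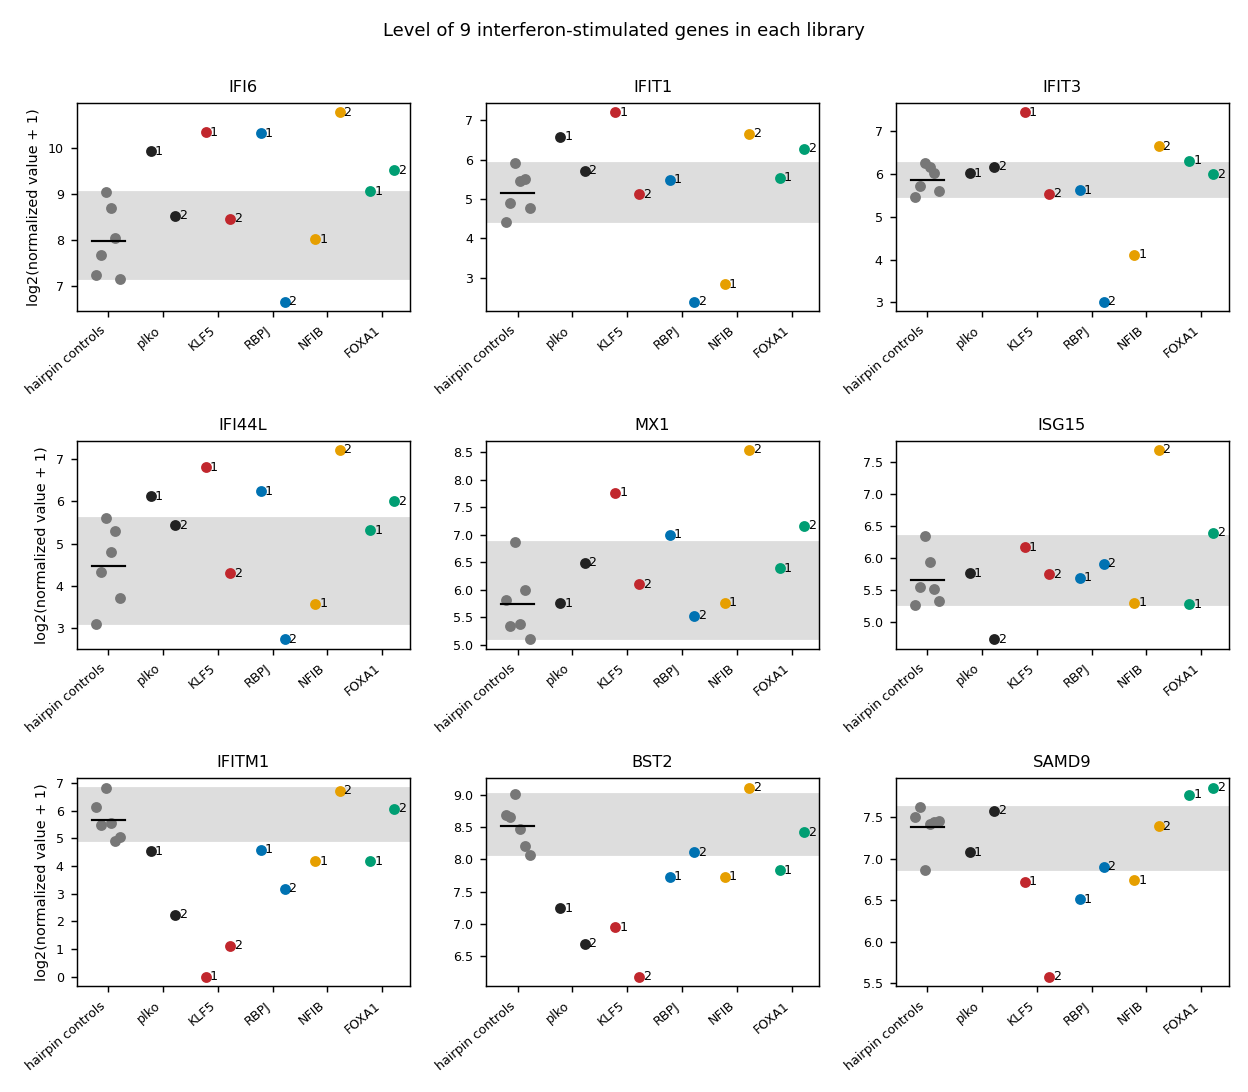
Level of 9 genes as log2(value + 1) in each library, with the grey band for the range and the black line for the mean of the 6 hairpin controls, and numbers for the library of a construct. IFIT1 and IFIT3 both drop below the band in RBPJ 2 and NFIB 1 and both rise above it in KLF5 1 and NFIB 2. IFIT1 is also above it in plko 1 and FOXA1 2, and IFIT3 in FOXA1 1. IFITM1 and BST2 lie below it in all plko and KLF5 libraries, and also in the library labelled RBPJ 1, NFIB 1 and FOXA1 1. IFITM1 is below it in RBPJ 2 as well.

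FOXA1 is a pioneer factor of luminal cells, and its hairpins called 0 of the 44 as a mean by limma, edgeR and DESeq2. By limma 0.00924% of all genes were called lower. At an unadjusted p under 0.05, 2 of the 44 were higher and 1 lower, against 2.22% and 4.74% of all genes. With single hairpins limma and edgeR called 0 in either library. At an unadjusted p under 0.05, 1 was higher and 3 lower in FOXA1 1, against 1.34% and 3.75% of all genes. In FOXA1 2, 8 were higher and 0 lower, against 2.12% and 5.37%. By adjusted p, 0.0185% of all genes were called in FOXA1 1 and 0.212% in FOXA1 2, all lower. In FOXA1 2, 17 of the 44 lay above all hairpin controls (16.1% of all genes) and 2 below (17.7%), and in FOXA1 1, 8 lay above (15.1%) and 3 below (16.1%). The control shLACZ 1 had 23 above the other 5 hairpin controls. DDX60 was at 36.9 and 70.6 with the FOXA1 hairpins against 19.7 to 33.2, and IFI6 at 533 and 733 against 142 to 524. Both hairpins lay above the controls for these 2 genes, which were chosen after their values were seen. They also did so for SAMD9 (218 and 231 against at most 196) and IFIT5 (33.6 and 31.5 against at most 26.8). DDX60 was above the hairpin controls in both plko libraries, KLF5 1 and NFIB 2 as well. IFI6 was above them in plko 1, KLF5 1, NFIB 2 and the library labelled RBPJ 1 as well. PARP14, an ADP-ribosyltransferase of antiviral defence, was highest of all libraries in FOXA1 2, at 140 against 48.2 to 81.7, and at 81.6 in FOXA1 1. The direct test between FOXA1 1 and FOXA1 2 called 0 of the 44 by limma and by edgeR. At an unadjusted p under 0.05, 5 were lower and 0 higher in FOXA1 1, against 1.84% and 2.75% of all genes. Leaving out shLACZ 1 gave 1 call in FOXA1 2.

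By role, the IFIT family had the widest swing of its median over libraries. The median difference from the hairpin controls over the 4 IFIT genes was -2.81 in RBPJ 2, -1.60 in NFIB 1, 0.62 in NFIB 2 and 1.23 in KLF5 1, and over the 4 OAS genes it was -1.17, -0.50, 1.37 and 0.57 in the same libraries. In RBPJ 2 all 8 genes of these families lay below the hairpin controls. In NFIB 2 all 4 OAS genes and 3 of the 4 IFIT genes lay above them. Among the 7 genes of ISG15 attachment and ADP-ribosylation, 6 lay above the controls in NFIB 2 and 5 below in RBPJ 2. UBE2L6, the enzyme that conjugates ISG15, was at 279 in NFIB 2 and 68.8 in RBPJ 2 against 89.1 to 173. ISG15 itself was at 58.8 in RBPJ 2, within the controls, so it did not share the low values of the IFIT genes there.

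Among the sensors, RIGI was at 13.3 in RBPJ 2 and 32.5 in NFIB 2 against 24.6 to 51.1, and IFIH1 at 9.01 and 17.3 against 6.80 to 11.3. DDX60L, a relative of DDX60, was at 37.9 in RBPJ 2, above its controls (6.80 to 28.9), while 3 of the 5 sensors lay below theirs in that library. Among the antiviral effectors, RSAD2, which makes the chain terminator ddhCTP, was at 4.27 in RBPJ 2 against 8.50 to 24.6, and CMPK2, its nucleotide kinase neighbour, at 12.3 against 21.1 to 35.9. XAF1, a pro-apoptotic induced protein, was at 32.9 in NFIB 2 against 4.79 to 28.2, and IFI27, of the IFI6 family, at 1379 against 390 to 817. ISG20, an exonuclease, had its highest value in NFIB 1 (21.2) and its lowest in FOXA1 1 (4.61). The transcription factors IRF7 and STAT2 rest on few reads, at 0.00 to 7.11 and 0.00 to 11.03 over all libraries. IRF1, a factor that acts early in the response, was at 16.1 to 49.3 over all libraries, with both ends in control constructs (plko 2 and shLACZ 1). DTX3L had the smallest range of the set, 61.6 to 104.

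The other genes of the pathway were grouped in lists and counted with the same tests. Of 7 interferon ligands none was analysed here. The 6 receptor genes gave 0 calls by limma in any of the 6 group comparisons, with 1 lower at an unadjusted p under 0.05 for KLF5 and 1 for NFIB. Among 7 signalling genes, JAK1, the kinase shared by the interferon receptors, fell with the KLF5 hairpins against the hairpin controls (log2 -0.99, adjusted p 0.00232) and against plko (-1.27, adjusted p 0.00982). JAK1 values were 139 in KLF5 1, 130 in KLF5 2, 366 and 287 in plko and 206 to 314 in the hairpin controls, so both KLF5 libraries lay below all others named. IRF2, a repressor of interferon-induced genes, rose with KLF5 against the hairpin controls (1.09, adjusted p 0.0144) and was not called against plko. It was at 57.6 and 61.8 with KLF5, 46.3 and 29.7 in plko and 23.1 to 35.2 in the hairpin controls.

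Of 10 sensors and adaptors tested, STING1, the adaptor of cytosolic DNA sensing, was the gene called with an NFIB or RBPJ hairpin. It was at 17.5 in RBPJ 2, 35.3 in the library labelled RBPJ 1, 24.6 in NFIB 1, 116 in NFIB 2 and 51.5 to 85.7 in the hairpin controls. It fell in RBPJ 2 (log2 -1.70, limma adjusted p 0.00212) and was lower in NFIB 1 than in NFIB 2 (-2.20, adjusted p 0.0185). ADAR and TRIM25 are an RNA editing enzyme and a ligase that activates RIG-I. They were lower with KLF5 against the hairpin controls (-0.64 and -0.84, limma adjusted p 0.032 and 0.0459). Neither was called against plko, where TRIM25 differed by -0.80 (adjusted p 0.175). The 6 negative regulators and 9 genes of hairpin processing gave 0 calls in the 6 group comparisons by limma, with at most 2 and 1 genes at an unadjusted p under 0.05 in a direction. Of 24 further induced genes, 3 were higher and 2 lower with KLF5 against the hairpin controls, where 4.42% and 6.61% of all genes were. The higher ones were TYMP (1.04), HELZ2 (1.10) and SHISA5 (0.93), and the lower ones ADAR and TRIM26 (-0.88). TYMP was higher (1.27) against plko as well, and the others were not called there. TRIM26 was lower (-0.89) in plko against the hairpin controls. GBP2, a guanylate-binding GTPase, and APOL6 fell in RBPJ 2 (-1.48 and -1.05, limma adjusted p 0.00212 and 0.00926). GBP2 was at 47.4 in RBPJ 2 and 60.1 in NFIB 1 against 110 to 149. The median of the 24 stayed between -0.19 and 0.29 in every comparison with the hairpin controls.

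Markers of other cells were counted in the same libraries. Of 7 leukocyte markers 2 were measured, and their summed value was 30.8 in NFIB 2, 51.2 in RBPJ 2 and 21.6 to 34.3 in the hairpin controls. PTPRC, which defines leukocytes, was at 0 in NFIB 2 and at most 3.55 in any library. For fibroblasts 4 of 6 markers were measured, with summed values of 38.3 and 40.1 with the NFIB hairpins, 35.5 and 43.2 with KLF5, 20.9 and 25.1 with RBPJ, 12.5 and 22.5 with FOXA1 and 8.38 to 25.8 in the hairpin controls. COL1A1, a fibroblast collagen, passed as higher with KLF5 against the hairpin controls (log2 1.33, limma adjusted p 0.0291), and its difference with NFIB was 1.34 without a call (adjusted p 0.516). COL1A1 was the largest part of the NFIB sums, at 24.6 in NFIB 1 and 32.5 in NFIB 2. The 6 epithelial markers, led by KRT5, summed to 3016 in NFIB 2 and 4951 in NFIB 1, to 5316 in RBPJ 2 and 3308 in the library labelled RBPJ 1, and to 3781 to 4998 in the hairpin controls. The lower sum of each pair was thus in the library with the higher values of the interferon-stimulated genes, and the part of these markers in the result was not tested. The part of the fibroblast and leukocyte markers was not tested either. The endothelial marker ENG, 1 of 5 measured, was at 2.21 to 10.97 over all libraries. In bulk samples, fewer cells with a transcript and less transcript per cell cannot be told apart.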

How the data were processed

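Transcripts of 16 HCC70 libraries were counted from the 3′ end with a barcoded, in vitro transcription protocol (CEL-Seq), made in batches of 12 with some samples run again, per the labels' protocols, which do not say which samples shared a batch or were repeated. Batch could therefore not be separated from group. The deposited signal values are read counts that the authors divided by a size factor per library with DESeq2, per the name of the deposited table, with GRCh37 as the build that the submitters' processing notes name. No aligner, counter or use of strand is named in the labels or headers used here. Whole reads were recovered for 100% of values within 0.05 reads. A further 2 columns that match no sample used here were left out.

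Genes reaching 5 in 2 or more libraries entered the fits, and log2(value + 1) was tested 2-sided with limma 3.58.1 in R 4.3.3 with a mean-variance trend. P-values were adjusted by Benjamini-Hochberg over 10826 genes at 0.05. One fit had 6 groups (10 residual degrees of freedom) and the other 10, with each targeting hairpin alone (6). Recovered reads were also tested with edgeR 4.0.16 and DESeq2 1.42.0. Other alternatives were pseudocounts of 0.5 and 5, no filter, at least 10 in 4 libraries, all 8 controls, a replicate block and each library left out. Fits were tested on simulated data. The members, lists and tests were chosen with earlier results of these data known. Genes described in full are members called in a group comparison and the 8 with the widest range at a mean of at least 10. Others are named where a single hairpin called them, by role or after their values were seen. Fold changes on this scale understate those of low genes, and near-identical copies (IFITM2 and IFITM3, OAS, IFIT, MX and SAMD9 relatives) may share reads.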

Additional observations from a re-analysis of the deposited data

Results flagged for a closer look

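Among the hairpin controls, shLACZ 1 stood far from the other 5 libraries for 2 genes. Its MX1 value was 115.45, above all others, and its SAMD9 value was 115.45, below all others. Only the genes picked for fuller description or called were examined, 22 in number, and chance flags about 1 in 20 groups.

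The difference between hairpins of a target passed the test for 13 gene and target pairs. Between the library labelled RBPJ 1 and RBPJ 2, the log2 differences were 2.61 for IFIT3, 2.73 for IFIT2, 3.10 for IFIT1, 3.49 for IFI44L, 3.65 for IFI6 and 2.02 for HERC5, all higher in the library labelled RBPJ 1. Between NFIB 1 and NFIB 2 they were -2.14 for OAS1, -2.39 for ISG15, -2.54 for IFIT3, -2.77 for LGALS3BP, -2.78 for MX1, -3.63 for IFI44L and -3.81 for IFIT1, all lower in NFIB 1. Each hairpin is 1 library.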

How the results depend on the processing

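With each library left out in turn, the number of the 44 genes called ran from 0 to 2 for KLF5 against plko, 1 to 4 for plko against the hairpin controls, 0 to 4 for the mean of RBPJ, 5 to 11 for RBPJ 2, 1 to 2 for NFIB 1, 1 to 7 for NFIB 2, 2 to 9 between the NFIB hairpins and 0 to 1 for FOXA1 2. With all 8 controls KLF5 1 had 3 calls, KLF5 2 had 1, RBPJ 2 had 5, and NFIB 1 and NFIB 2 had 0. With edgeR they were 0 for KLF5 against plko, 2 for plko, 13 for NFIB 2, 18 between the NFIB hairpins and 1 for the library labelled RBPJ 1, and with DESeq2 1 for KLF5 against plko. A pseudocount of 5 gave 1 for KLF5 against plko, 7 for NFIB 2 and 12 between the NFIB hairpins. Of the alternatives chosen after seeing the data, plko as the only control gave 2 calls each for KLF5 1 and KLF5 2, and leaving out the plko and KLF5 libraries gave 11 between the NFIB hairpins and 1 for the library labelled RBPJ 1. OAS3 in KLF5 1 reversed with plko as the only control, to -0.17 (adjusted p 0.838). The cause of these moves was not tested.

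Of 50 called gene and comparison pairs, 28 passed in every fit with 1 library left out, and 0 of 400 such values reversed. Replicate numbers did not pair the samples: over 28 pairs of constructs, the correlation of same-numbered deviations ran from -0.19 to 0.22 (median 0.03). With the replicate block the counts were 4 for KLF5, 2 for KLF5 against plko, 4 for plko and 0 for each other target, as without it, and all 10 gene calls were kept. Depth limits genes such as IRF7, STAT2 and MX2, and plko 1 had a median of 17 reads over the 44 genes.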
